A study of Homo sapiens with 4 samples.

Results

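Entry of calcium across the plasma membrane was followed through 10 genes in RNA of 2 human prostate cancer cell lines. They are the voltage-gated channel genes CACNA1D, CACNA1G, CACNA1H and CACNA1I, the transient receptor potential (TRP) channel genes TRPM4, TRPM8 and TRPV6, the store-operated channel gene ORAI1 and its sensor genes STIM1 and STIM2. The genes were chosen by symbol, with the difference between the lines known from earlier work on the same data, so their values are described with errors and no p-value, and nothing is read from their calls in the fit across all genes. All 10 were found among the 22985 named genes, through the RefSeq accessions of the deposited rows.

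C4-2 (2 libraries), which was derived from LNCaP and carries the label of castration-resistant cancer (CRPC), was set against LNCaP itself (2 libraries), an androgen-sensitive line that came from a lymph node metastasis and is labelled as primary cancer (PC). Cells of both lines were grown in RPMI medium whose serum had been stripped of steroids, which depletes androgen, and total RNA was sequenced after removal of ribosomal RNA. The labels do not tell whether replicate libraries stem from different cultures, so that p-values speak only for the spread among these 4 libraries, part or all of which may be technical. Each sample's data are stored under the name of the other line. Groups follow the titles and cell line labels, and every direction below would turn round if the stored names were right. In bulk RNA of this kind, fewer cells that express a gene and less RNA per cell cannot be told apart.

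Voltage-gated calcium channels open when the membrane depolarises. CACNA1G, CACNA1H and CACNA1I encode the pore-forming subunits of T-type channels, which open close to the resting potential, and CACNA1D encodes an L-type pore. TRPM8 is the cold and menthol receptor and is a gene of androgen-responsive prostate epithelium, TRPV6 is a calcium-selective channel of epithelia, and TRPM4 is opened by calcium but carries monovalent cations. When the endoplasmic reticulum empties, STIM1 and STIM2 sense the fall and open the ORAI1 pore, the route known as store-operated entry.

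Promoters of 7 of the 10 genes matched the RefSeq table (GRCh38.p14), and 4 are printed. CACNA1H, CACNA1G and ORAI1 had no match. These are the members with the highest log2 fold changes (5.43, 4.26 and 1.05), so the strongest rises in C4-2 are missing here. TRPM8 (chr2:233917123-233917372, plus strand), with the lowest GC content of the 7, and TRPV6 (chr7:142885746-142885995, minus strand) are shown as the members with a lower level in C4-2. CACNA1D (chr3:53494361-53494610, plus strand) and STIM2 (chr4:26860591-26860840, plus strand), both higher in C4-2, are shown for their GC content, the highest of the 7 at the gene start. The 4 do not stand for all gene starts, since STIM1, also higher in C4-2, had 5 CpG dinucleotides and 56.0% GC at its gene start. Its later starts had 68.0% to 79.6% GC, and which start the counted STIM1 transcript uses was not examined. Each run holds the 250 bases before the annotated gene start, 5′ to 3′ on the gene's strand. Capitals mark any match on either strand to the GC box GGGCGG, the TATA box TATAAA or the androgen receptor hexamer TGTTCT.
TRPM8: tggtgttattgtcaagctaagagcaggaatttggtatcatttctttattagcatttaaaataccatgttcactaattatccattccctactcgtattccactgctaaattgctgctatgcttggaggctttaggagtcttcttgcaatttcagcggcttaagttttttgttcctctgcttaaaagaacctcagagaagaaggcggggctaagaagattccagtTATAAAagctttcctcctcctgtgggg
TRPV6: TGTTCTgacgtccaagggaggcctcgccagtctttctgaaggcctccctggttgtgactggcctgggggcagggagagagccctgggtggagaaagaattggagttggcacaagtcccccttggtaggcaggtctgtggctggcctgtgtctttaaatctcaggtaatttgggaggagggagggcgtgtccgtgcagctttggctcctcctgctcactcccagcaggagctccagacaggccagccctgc
CACNA1D: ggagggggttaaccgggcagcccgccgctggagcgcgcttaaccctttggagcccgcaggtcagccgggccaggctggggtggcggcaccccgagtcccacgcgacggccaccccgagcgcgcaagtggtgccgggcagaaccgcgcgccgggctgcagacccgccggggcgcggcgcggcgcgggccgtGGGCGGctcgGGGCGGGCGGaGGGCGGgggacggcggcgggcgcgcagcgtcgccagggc
STIM2: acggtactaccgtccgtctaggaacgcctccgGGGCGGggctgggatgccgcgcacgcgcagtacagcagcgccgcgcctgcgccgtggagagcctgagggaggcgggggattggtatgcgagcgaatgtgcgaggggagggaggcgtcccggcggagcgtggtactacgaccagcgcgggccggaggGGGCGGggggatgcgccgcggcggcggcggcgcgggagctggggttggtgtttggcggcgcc
TRPM8 had 3 CpG dinucleotides and a GC content of 40.0%, with 1 TATA box that began 27 bases before the start. The window of a later TRPM8 start, chr2:233979899-233980148, held 1 androgen receptor hexamer, and those of its other later starts held none of these motifs. TRPV6 had 4 CpG and 60.4% GC, with 1 androgen receptor hexamer at the far end of the window, 250 bases before the start. CACNA1D had 41 CpG, 81.6% GC and 4 GC boxes, of which 2 overlap, and STIM2 had 38 CpG, 75.2% GC and 2 GC boxes. The median over 34941 promoters of this length was 11 CpG and 58.0% GC. The TATA box was present in 10.8% of them, the hexamer in 12.4% and the GC box in 42.5%. Among the other matched genes, TRPM4 had 16 CpG and 3 GC boxes, CACNA1I had 3 CpG and none of these motifs, and STIM1 had 2 hexamers at its gene start. At its 3 later starts STIM1 had 22 to 35 CpG and 2 to 8 GC boxes. These matches are letters in a window and not binding sites.

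Tags on the sense strand of named genes came to 163.1 and 119.1 M (mega) in the C4-2 libraries, against 58.9 and 70.5 M in the LNCaP libraries. They made up 67.7% and 69.4% of the total behind the deposited RPKM values in C4-2, against 31.0% and 35.7% in LNCaP, and this difference moves with the line for every gene. Levels given as CPM are scaled by TMM, which sets the typical gene near no change. All 10 luminal prostate markers examined were detected in every library, with summed levels of 4212 to 4272 CPM in C4-2 and 2444 to 2489 CPM in LNCaP. The 4 basal markers summed to 0.124 to 0.203 CPM in C4-2 and at most 0.0706 CPM in LNCaP, and all 4 had 0 tags in LNCaP replicate 1. The 5 neuroendocrine markers summed to 1.26 to 1.31 CPM in C4-2 and 1.13 to 1.53 CPM in LNCaP, the 5 stromal ones to 3.92 to 4.06 CPM in C4-2 and 8.02 to 9.79 CPM in LNCaP, and the 6 immune and endothelial ones to 1.46 to 1.63 CPM in C4-2 and 1.86 to 2.12 CPM in LNCaP. Single markers did not all follow their sum: FOLH1, a luminal marker, was lower in C4-2 (978 and 994 CPM) than in LNCaP (1153 and 1119 CPM), and the stromal sum rests mostly on COL1A1 (2.65 and 2.74 CPM in C4-2, against 6.77 and 8.25 CPM in LNCaP). COL1A2 and CD3E had 0 tags throughout. Whether these markers play a part in any result was not tested.

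CACNA1H, the T-type channel gene, stood furthest apart between the lines. It lies on hg19 chromosome 16, 1203241 to 1271772, plus strand. Its sense tags numbered 4340 and 3284 in C4-2, against 46 and 37 in LNCaP, which is 27.0 and 27.8 CPM in C4-2 and 0.766 and 0.523 CPM in LNCaP. The lines did not overlap, and the C4-2 libraries differed from each other far less than from either LNCaP library. The log2 fold change, C4-2 over LNCaP, was 5.43 ± 0.13 (SE, n = 2 per line), a ratio of 43.1 with a 95% counting interval of 34.8 to 54.2, and it ranked 49 from the highest of 15975 genes. Without LNCaP replicate 2 it stood at 5.16, and without LNCaP replicate 1 at 5.72. Almost no tags lay on the opposite strand, 2 and 4 in C4-2 and 0 in both LNCaP libraries, although TPSG1 and 3 GENCODE lncRNA genes run against its span there.

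CACNA1G, also a T-type gene (hg19 chromosome 17, 48638429 to 48704832, plus strand), had 195 and 103 tags in C4-2 and 4 and 3 tags in LNCaP. The levels were 1.21 and 0.873 CPM in C4-2, against 0.0666 and 0.0424 CPM in LNCaP. In LNCaP the gene was thus at the edge of detection, with counting intervals of 1.09 to 10.2 tags and 0.619 to 8.77 tags, and it passed the filter on low counts, 0.106 CPM in 2 libraries, only through C4-2. Its tag ratio was 20.0 (counting interval 9.58 to 50.2), and its log2 fold change 4.26 ± 0.41 (SE). The C4-2 libraries also held 9 and 7 tags on the opposite strand, where CACNA1G-AS1 and 2 further GENCODE lncRNA genes overlap the span, against 0 and 0 in LNCaP.

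CACNA1I, the remaining T-type gene (hg19 chromosome 22, 39966758 to 40085740, plus strand), showed no such gap. It had 62 and 43 tags in C4-2, against 25 and 21 in LNCaP. That is 0.386 and 0.364 CPM in C4-2 and 0.416 and 0.297 CPM in LNCaP, so the lines overlapped. The log2 fold change was 0.09 ± 0.30 (SE), and the counting interval of the ratio ran from 0.751 to 1.55. That interval leaves out the spread between libraries. Ratios inside it, and some beyond it, therefore cannot be told from no change here.

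The L-type gene CACNA1D (hg19 chromosome 3, 53529031 to 53846492, plus strand) had 782 and 536 tags in C4-2 and 145 and 187 in LNCaP. Its level was 4.87 and 4.54 CPM in C4-2, against 2.41 and 2.64 CPM in LNCaP, with no overlap, and the log2 fold change was 0.90 ± 0.12 (SE). Tags on the opposite strand were few in number but made up 3.44% of its tags in C4-2 and 11.2% in LNCaP. Over all named genes such tags made up 1.31% and 1.29% in the C4-2 libraries and 1.99% and 1.83% in the LNCaP libraries.

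Shares among the 4 voltage-gated genes do not depend on how libraries are scaled. Counted per length, CACNA1H made up 80.2% and 82.4% of their summed signal in C4-2, against 20.7% and 14.6% in LNCaP. CACNA1D made up 15.2% and 14.1% in C4-2 and 68.3% and 77.4% in LNCaP. Of the 4, the leading transcript was therefore CACNA1H in both C4-2 libraries and CACNA1D in both LNCaP libraries. Per length there were 5.29 and 5.84 CACNA1H tags for each CACNA1D tag in C4-2, against 0.302 and 0.189 in LNCaP.

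**Figure D1:**
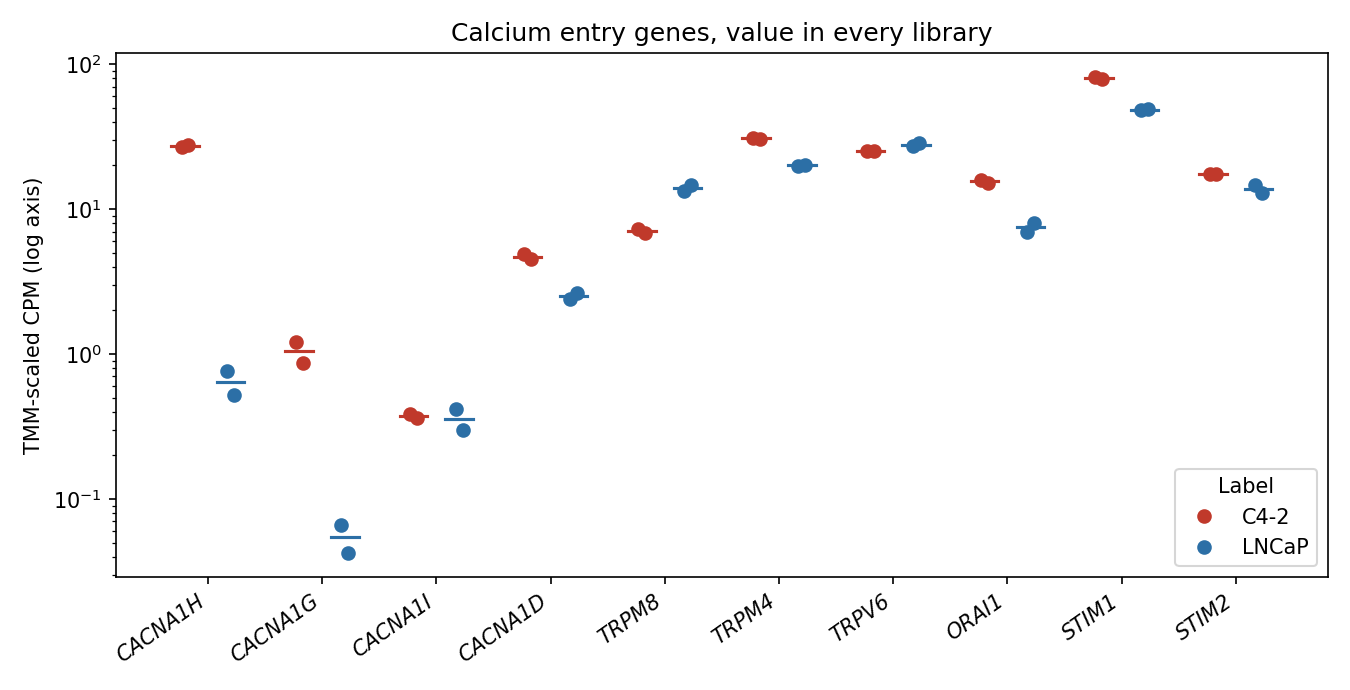
Level of each of the 10 genes in every library, as TMM-scaled CPM on a log axis; points are libraries, short lines are means of 2 libraries, red is C4-2 and blue is LNCaP. CACNA1H and CACNA1G have the widest gaps, TRPM8 and TRPV6 lie lower in C4-2, and the lines overlap for CACNA1I only.

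TRPM8 was the member with the clearest lower level in C4-2. The gene lies on hg19 chromosome 2, 234826043 to 234928166, plus strand, and had 1163 and 807 tags in C4-2, against 799 and 1033 in LNCaP. Its level was 7.24 and 6.84 CPM in C4-2, against 13.3 and 14.6 CPM in LNCaP, with no overlap. The log2 fold change was -0.99 ± 0.08 (SE), a ratio of 0.505 with a counting interval of 0.474 to 0.538. With libraries scaled to the totals behind RPKM the value became 0.014 while the median of all genes moved to 0.99, so TRPM8 lay about as far below the typical gene under either scaling.

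TRPV6 (hg19 chromosome 7, 142568960 to 142583490, minus strand) was close to level. It had 4073 and 2967 tags in C4-2 and 1633 and 2018 in LNCaP, which is 25.4 and 25.1 CPM in C4-2 and 27.2 and 28.5 CPM in LNCaP. The libraries of the lines did not overlap, but the log2 fold change was only -0.14 ± 0.05 (SE). It passed the threshold under the main settings and under 4 of the 12 alternatives, in 1 of which, the library totals, its sign was positive (0.86). Among the 8 that ended the call were the fits without LNCaP replicate 2 (-0.10), without C4-2 replicate 1 (-0.14) and without C4-2 replicate 2 (-0.13). Its neighbour and near copy TRPV5, to which similar reads could be assigned, averaged 0.431 ± 0.094 CPM in C4-2 and 0.516 ± 0.071 CPM in LNCaP (SD, n = 2) and did not pass the test.

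TRPM4, the calcium-activated cation channel gene (hg19 chromosome 19, 49661016 to 49715098, plus strand), was higher in C4-2. It had 5001 and 3594 tags in C4-2, against 1195 and 1426 in LNCaP, or 31.1 and 30.5 CPM in C4-2 and 19.9 and 20.1 CPM in LNCaP. The lines did not overlap and the log2 fold change was 0.62 ± 0.05 (SE). Not a single tag lay on its opposite strand in any library.

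The balance among the TRP genes shifted in a way that no scaling can alter. For each TRPM4 tag per length there were 0.170 and 0.164 TRPM8 tags in C4-2, against 0.487 and 0.528 in LNCaP. TRPV6 stood at 1.15 and 1.16 per TRPM4 tag in C4-2 and at 1.93 and 1.99 in LNCaP. TRPM8 per TRPV6 was 0.148 and 0.141 in C4-2, against 0.253 and 0.265 in LNCaP.

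All 3 store-operated genes were higher in C4-2, each without overlap, beside 89.9% of all tested genes without overlap in either direction. ORAI1, the pore gene (hg19 chromosome 12, 122064455 to 122079946, plus strand), had 2570 and 1783 tags in C4-2 and 415 and 571 in LNCaP. That is 16.0 and 15.1 CPM in C4-2, against 6.91 and 8.07 CPM in LNCaP, a log2 fold change of 1.05 ± 0.09 (SE). ORAI1 thus moved most among the store-operated genes.

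STIM1, the main reticulum sensor (hg19 chromosome 11, 3876933 to 4114440, plus strand), had 13140 and 9355 tags in C4-2 and 2882 and 3475 in LNCaP. Its level was 81.8 and 79.3 CPM in C4-2, against 48.0 and 49.1 CPM in LNCaP, and the log2 fold change was 0.73 ± 0.04 (SE). The microRNA gene MIR4687 lies on the same strand inside its span, with 194 and 144 tags in C4-2 and 33 and 37 in LNCaP, and these cannot be separated from STIM1 tags where exons coincide.

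STIM2, the sensor of small losses from the store (hg19 chromosome 4, 26862313 to 27027003, plus strand), had 2795 and 2051 tags in C4-2 and 883 and 909 in LNCaP. It reached 17.4 CPM in both C4-2 libraries, against 14.7 and 12.8 CPM in LNCaP, a log2 fold change of 0.34 ± 0.08 (SE). The gap to the nearer LNCaP library was the smallest of the store-operated genes.

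Per length there were 6.08 and 5.90 STIM1 tags for each STIM2 tag in C4-2, against 4.22 and 4.94 in LNCaP. ORAI1 per STIM1 was 0.526 and 0.512 in C4-2 and 0.387 and 0.442 in LNCaP, and ORAI1 per STIM2 was 3.20 and 3.02 in C4-2 and 1.63 and 2.18 in LNCaP. None of these ratios overlapped between the lines, but neither did the levels of 89.9% of all tested genes. No share over other ratios was taken.

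**Figure D2:**
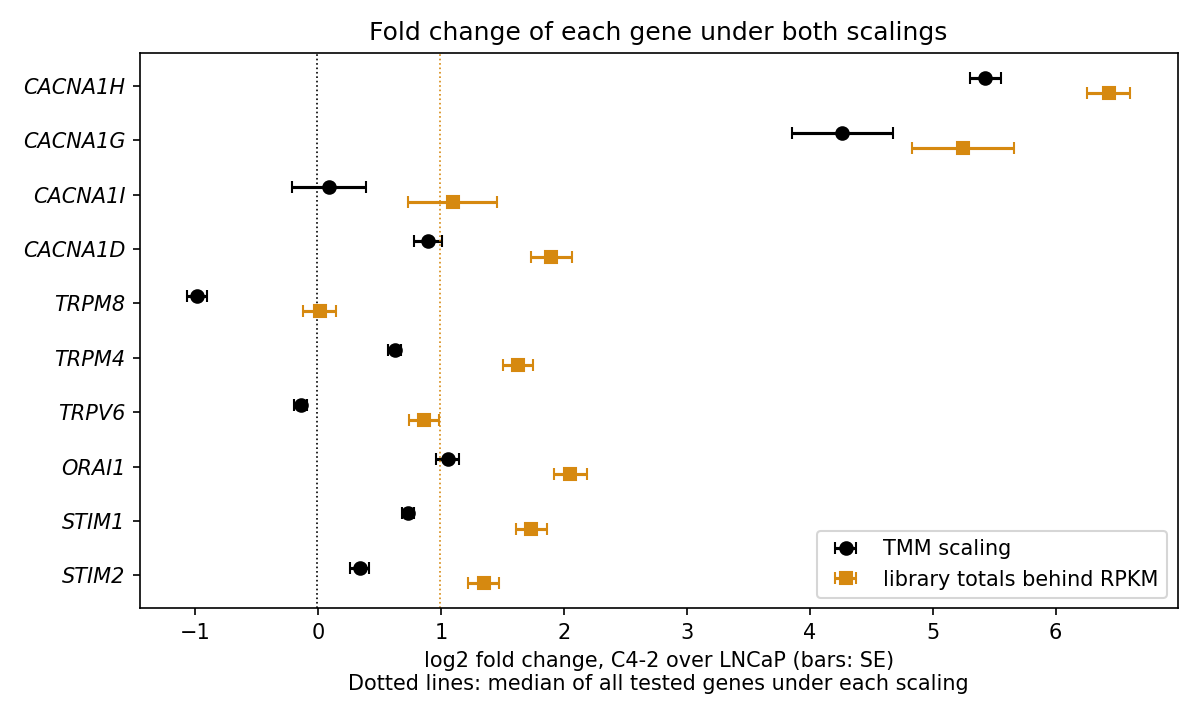
Log2 fold change of each gene, C4-2 over LNCaP, with its SE, under TMM scaling (black circles) and with library totals behind RPKM (orange squares); dotted lines are the medians of all tested genes under each scaling. With library totals every gene lies further right by about the shift of the median, which is -0.01 under TMM and 0.99 with library totals, so TRPM8 and TRPV6 change sign while the order of the genes stays alike.

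Counted as calls, 7 of the 10 genes were higher and 2 lower in C4-2 at an adjusted p under 0.05 (edgeR quasi-likelihood test, Benjamini-Hochberg adjustment over all genes). Among all 15975 genes tested 80.0% were called, 40.2% higher and 39.7% lower. The lines did not overlap for 9 of the 10 genes, beside 89.9% of all tested genes. Because the genes were chosen with this contrast known, nothing is read from these counts. The median log2 fold change was 0.68 over the 10 genes and -0.01 over all tested genes.

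Levels of different genes were compared within a library by the deposited RPKM, which divides by exon length. In C4-2 the order from high to low was STIM1, ORAI1, TRPV6, TRPM4, CACNA1H, STIM2, TRPM8, CACNA1D, CACNA1G and CACNA1I in both libraries. STIM1 led with 13.5 RPKM in each C4-2 library, ORAI1 had 7.10 and 6.92 RPKM, and CACNA1I closed the order with 0.026 and 0.025 RPKM. CACNA1H, with 2.23 and 2.37 RPKM, and STIM2, with 2.22 and 2.29 RPKM, overlapped there, and no other neighbours in the order did.

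In LNCaP the order began with STIM1 at 3.76 and 4.36 RPKM and TRPV6 at 2.96 and 3.51 RPKM. ORAI1 (1.46 and 1.92 RPKM) and TRPM4 (1.54 and 1.76 RPKM) overlapped, as did STIM2 (0.891 and 0.881 RPKM) and TRPM8 (0.749 and 0.930 RPKM). Below them came CACNA1D with 0.099 and 0.123 RPKM, CACNA1H with 0.030 and 0.023 RPKM, CACNA1I with 0.013 and 0.011 RPKM, and CACNA1G with 0.003 and 0.002 RPKM. CACNA1H was thus at place 5 of the 10 in both C4-2 libraries and at place 8 in both LNCaP libraries. It exceeded 46.4% and 46.2% of detected genes in C4-2, against 14.5% and 12.6% in LNCaP. TRPV6 exceeded 61.9% and 61.2% of detected genes in C4-2 and 64.9% and 66.2% in LNCaP.

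**Figure D3:**
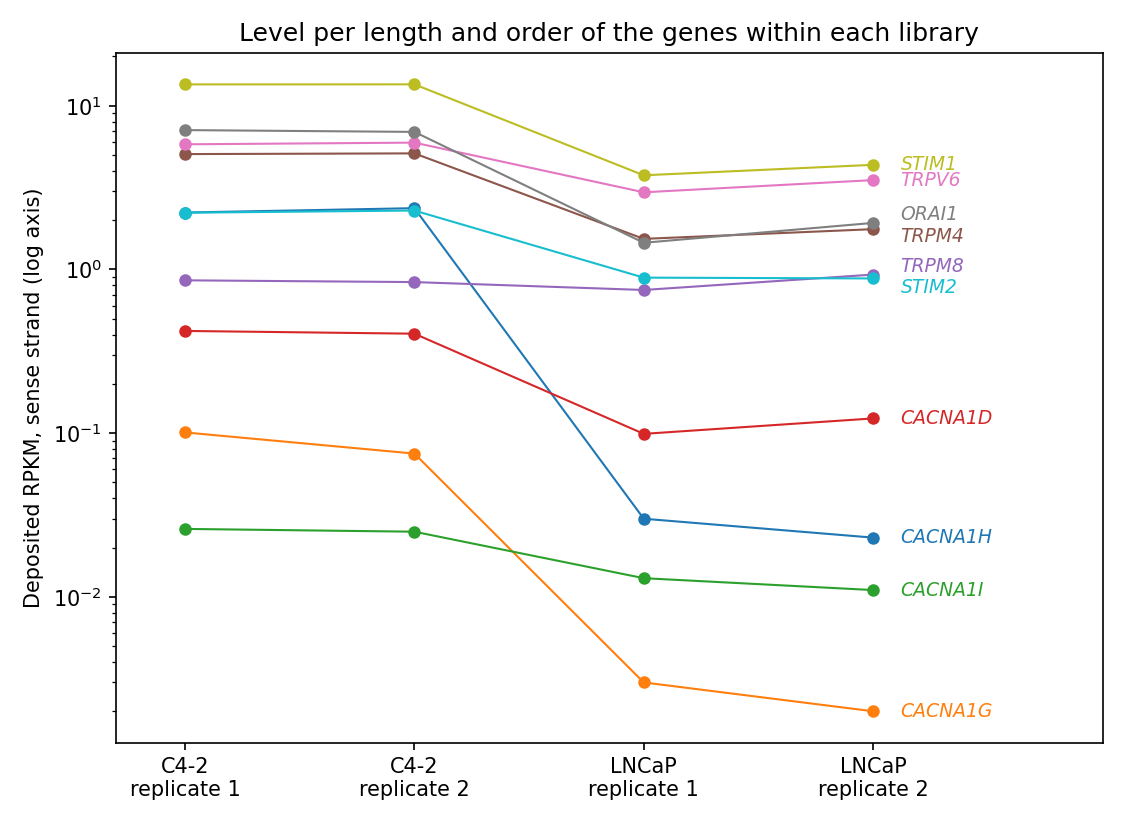
Deposited RPKM of the sense strand for each of the 10 genes (log axis) in the 4 libraries, C4-2 on the left, with 1 line per gene. CACNA1H lies beside STIM2 in C4-2 and below CACNA1D in LNCaP, while TRPM8 stays between 0.749 and 0.930 RPKM in all 4 libraries.

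Several genes had more than 1 transcript row, and these count largely the same tags. The 33 rows of CACNA1G ranged from 183 to 195 and from 96 to 103 tags in the C4-2 libraries, and the 2 rows of CACNA1H from 4331 to 4340 and from 3280 to 3284. TRPM4 showed the widest gap among the well-covered genes. Its row of 3661 exon bases held 4736 and 3420 tags in C4-2 and 1156 and 1379 in LNCaP, and its row of 4096 exon bases held all TRPM4 tags given above. The shorter row thus missed 5.30% and 4.84% of the tags in C4-2, against 3.26% and 3.30% in LNCaP. ORAI1, STIM1, TRPM8 and TRPV6 had 1 row each, so isoforms could not be compared.

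Genes whose pattern over the 4 libraries lay closest were found by the Euclidean distance of centred log2 CPM. Closest to CACNA1H were PABPC5, PCDHB12 and TMEFF2, at distances of 0.358, 0.518 and 0.574 and with log2 fold changes of 5.40, 5.62 and 5.96. In LNCaP PCDHB12 averaged 0.0308 CPM, under the filter of 0.106 CPM, so it passed through C4-2 only. PABPC5 averaged 0.161 CPM and TMEFF2 1.21 CPM in LNCaP, so the fold change of PABPC5 also rests on few LNCaP tags. For TRPM8 they were HTR7P1, UBAC2-AS1 and H3C4, at 0.0192, 0.0266 and 0.0293, and for TRPV6 they were POLE, SUCLA2 and CYTH3, at 0.00835, 0.00977 and 0.0121. PCDHB12 and H3C4 have close copies in their families, so their tags are uncertain. Whether the other named genes, such as PABPC5 and HTR7P1, share sequence with copies elsewhere was not examined. With 2 libraries per line such a distance reflects mostly the fold change, and no more is read from it.

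The remaining genes of calcium handling were taken from a list of 117, of which 77 had enough tags. Of these, 25 were higher and 33 lower in C4-2 and 19 did not pass, beside the 40.2% and 39.7% of all genes. Their median log2 fold change was -0.14. In 10 of the 77, tags reached the filter in 1 line only, 8 in LNCaP and 2 in C4-2, so that these genes entered the test through the line where they are high and all 10 were called. Among the other 67, 23 were higher and 25 lower, or 34.3% and 37.3%. Under the same restriction 41.8% and 37.5% of 15079 genes were. Over all 77, the library totals behind RPKM gave 53 higher and 9 lower, beside 11572 and 1757 of all 15975 tested genes. The directions that follow are therefore relative to the typical gene. Counts per class are small and are to be read beside the shares of all genes given here. The list was drawn up with earlier results of these data known, and genes are named by smallest adjusted p. Their p-values thus describe the fit and lend these genes no support.

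Among voltage-gated channels, none of the 6 further pore-forming genes reached 1 CPM. CACNA1S and CACNA1B, at 0.0461 ± 0.0052 and 0.0599 ± 0.023 CPM in C4-2 against 0.195 ± 0.077 and 0.236 ± 0.15 CPM in LNCaP (SD, n = 2), passed the test as lower, but both reached the filter of 0.106 CPM in LNCaP only, which largely fixes that direction. Both lost the call with library totals (-1.02 and -1.06) and by DESeq2 (-2.06 and -1.98). CACNA1S also lost it without LNCaP replicate 1 (-1.57) and CACNA1B without LNCaP replicate 2 (-1.18) and without C4-2 replicate 1 (-1.63). Of 6 auxiliary subunit genes tested, 3 rose and 2 fell, or 3 and 1 with library totals. CACNA2D2, an alpha-2-delta subunit gene, rose to 6.26 ± 0.14 CPM in C4-2, against 1.54 ± 0.016 CPM in LNCaP (log2 fold change 2.03 ± 0.11 SE, edgeR adjusted p = 9.66e-07), and stood at 1.23 when tags of both strands were added. The beta subunit gene CACNB1 fell (-1.77). CACNB2, also a beta subunit gene, rose (1.67), but its value was -0.011 when tags of both strands were added.

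Other TRP and related genes fell in 7 and rose in 3 of 13 cases, beside 39.7% lower and 40.2% higher among all tested genes. With library totals they fell in 3 and rose in 8, beside 1757 lower and 11572 higher of all 15975 genes. Of those that fell, TRPV2, TRPV3 and PKD2L2 passed the filter through LNCaP only, which largely fixes that direction. TRPM2, a channel opened by ADP-ribose, rose to 91.6 ± 2.43 CPM in C4-2, against 42.6 ± 4.90 CPM in LNCaP (log2 fold change 1.10, adjusted p = 2.67e-06 by edgeR). The lysosomal channel gene MCOLN2 rose as well (0.92). TRPV3, a warmth-sensitive channel gene, had 10 and 0 tags in C4-2 and 200 and 209 tags in LNCaP, with a LNCaP to C4-2 ratio of 87.1 (counting interval 46.9 to 183.0). It passed the filter through LNCaP only. Its fitted log2 fold change was -6.41, or -5.62 without C4-2 replicate 2; without C4-2 replicate 1 the remaining C4-2 library has 0 tags, so the fitted -11.02 is no estimate.

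Store-operated partners split, with 4 genes higher and 2 lower of 6, or 4 and 0 with library totals. STIMATE, which promotes STIM1 opening, and the pore gene ORAI2 rose (0.69 and 0.68), and CRACR2B, a regulator of the ORAI1 and STIM1 complex, fell (-0.75, but 0.25 with library totals). Per length there were 4.48 and 4.52 ORAI1 tags for each ORAI2 tag in C4-2, against 3.41 and 3.55 in LNCaP. ORAI3 per ORAI1 was 0.510 and 0.486 in C4-2 and 0.820 and 0.790 in LNCaP.

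Release and removal genes moved in both directions. The reticulum release channel gene ITPR1 rose to 58.6 ± 1.52 CPM in C4-2, against 14.0 ± 1.10 CPM in LNCaP (log2 fold change 2.06, adjusted p = 8.17e-08 by edgeR), while ITPR2 fell (-0.64, but 0.36 with library totals). Of 7 pump genes 2 rose and 3 fell (5 and 1 with library totals): the plasma membrane pump gene ATP2B4 and the Golgi pump gene ATP2C1 rose (0.91 and 0.51), and ATP2B1 fell to 126.6 ± 3.40 CPM in C4-2, against 278.1 ± 15.5 CPM in LNCaP (-1.13), a call lost with library totals (-0.13). ATP2A3, also among the pump genes that fell, passed the filter through LNCaP only. Among 5 exchanger genes SLC24A2 and SLC24A4 fell, whereas 3 were higher and 1 lower with library totals. SLC24A2 had 3 and 2 tags in C4-2, against 28 and 17 in LNCaP, a LNCaP to C4-2 ratio of 19.2 (counting interval 7.63 to 61.9), and passed the filter through LNCaP only. SLC24A4 stood at -0.78 and lost its call by DESeq2 (-0.76), without LNCaP replicate 1 (-0.73) and without C4-2 replicate 1 (-0.68), and turned to 0.22 with library totals.

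Mitochondrial uptake genes fell in 5 and rose in 1 of 7 cases, beside 39.7% lower and 40.2% higher among all tested genes. With library totals they fell in 1 and rose in 5, beside 1757 lower and 11572 higher of all 15975 genes. MCUB, the inhibitory paralog of the uniporter pore, fell to 0.332 ± 0.014 CPM in C4-2, against 5.90 ± 0.034 CPM in LNCaP (log2 fold change -4.14, adjusted p = 1.07e-07 by edgeR). The uniporter gatekeeper gene MICU2 and the uniporter subunit gene SMDT1 fell by less (-0.90 and -0.65, or 0.11 and 0.35 with library totals).

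Other entry channels rose in 3 and fell in 3 of 7 cases (6 and 1 with library totals). P2RX5, an ATP-gated channel gene, had 3 and 2 tags in C4-2 and 200 and 200 in LNCaP, a LNCaP to C4-2 ratio of 170.3 (counting interval 72.4 to 527.5), and likewise passed the filter through LNCaP only. The mechanosensitive channel gene PIEZO1 rose (0.57) and the endolysosomal channel gene TPCN1 fell (-0.52, but 0.48 with library totals). P2RX2, also among the entry channel genes that rose, passed the filter through C4-2 only.

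Of 19 sensor, buffer and decoder genes 8 rose and 6 fell, or 15 and 1 with library totals. CALB2, among those that rose, passed the filter through C4-2 only. The kinase gene CAMK2B rose to 32.1 ± 1.70 CPM in C4-2, against 1.98 ± 0.17 CPM in LNCaP (log2 fold change 4.01, adjusted p = 1.34e-08 by edgeR). PPP3CA, a catalytic subunit gene of calcineurin, rose (0.81), and the calmodulin gene CALM2 fell to 303.3 ± 7.77 CPM in C4-2, against 731.0 ± 23.4 CPM in LNCaP (-1.27), a call lost with library totals (-0.26).

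**Figure D4:**
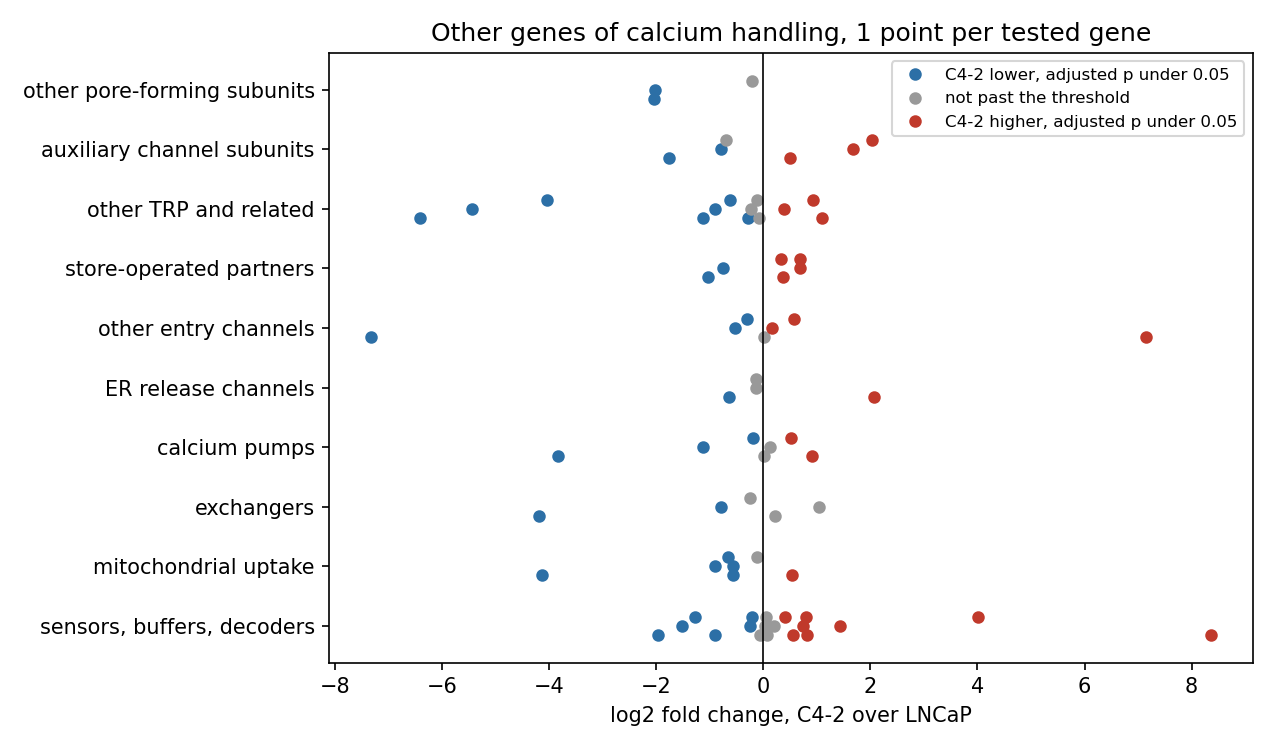
Log2 fold change, C4-2 over LNCaP, of the 77 tested genes of the wider list, by class; red and blue points passed an adjusted p under 0.05 as higher and lower, grey points did not. Points of both colours stand in most classes; the points beyond 7 on the right are P2RX2 and CALB2, which had 0 tags in LNCaP, so that their fitted values are no bounds.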

How the data were processed

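Per the submitters' processing notes, TopHat2 2.0.6 and Bowtie aligned the reads of the 4 libraries to hg19 (GRCh37); the counting tool is not given in the sources used here. The authors deposited 41351 transcript rows per library with tag counts and RPKM by strand, per the file headers. Counts on the transcript's own strand were used. RefSeq (GRCh38.p14) named 38974 of 40304 accessions and gave the promoters; unnamed rows, 2.06% to 2.15% of sense tags, were left out. The row with the highest mean share of tags stood for each gene, and exon lengths were those implied by RPKM.

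The test was edgeR 4.0.16 (R 4.3.3, filterByExpr, TMM, quasi-likelihood, Benjamini-Hochberg, line as the only term), checked on simulated counts. Members and lists were chosen with earlier results of these data known. Besides the members, the genes named were up to 3 called genes per class by smallest adjusted p and the 3 closest patterns to CACNA1H, TRPM8 and TRPV6. ORAI3, TRPV2, TRPV5, PKD2L2, ATP2A3, P2RX2, CALB2 and the markers given singly were picked after their values were seen. Replicates differed beyond sampling noise (chi-square per degree of freedom 13.0 in C4-2, 26.5 in LNCaP), so none was a copy. Intervals are exact, at 95%, for counting error only. DESeq2 1.42.0, other filters, left-out libraries, a replicate block, library totals, summed transcripts and both strands were alternatives.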

Additional observations from a re-analysis of the deposited data

Results flagged for a closer look

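Tags on the strand opposite to a member, which entered no fit but the alternative that adds both strands, exceeded 3 in both libraries of a line for 5 genes. For CACNA1D they summed to 47 in C4-2 and 42 in LNCaP, although its sense tags numbered 1318 in C4-2 and 332 in LNCaP, and GENCODE (GRCh37) places CHDH, SNORD63 and a lncRNA gene on that strand. For CACNA1G they summed to 16 in C4-2 and 0 in LNCaP. For TRPM8 they summed to 44 in C4-2 and 30 in LNCaP, with 2 lncRNA genes annotated opposite it. For ORAI1 the sum was 13 in C4-2 and 0 in LNCaP, and for STIM1 it was 21 in C4-2 and 23 in LNCaP. Over all named genes such tags made up 1.31% and 1.29% in the C4-2 libraries and 1.99% and 1.83% in the LNCaP libraries. ORAI1 (0.298% in C4-2) and STIM1 (0.0933% in C4-2 and 0.361% in LNCaP) lay below these shares. TRPM8 (2.18% in C4-2 and 1.61% in LNCaP) lay near them. CACNA1D (3.44% in C4-2 and 11.2% in LNCaP) and CACNA1G (5.10% in C4-2) lay above. The sums are not scaled for depth. The opposite-strand tags were not tested on their own.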

How the results depend on the processing

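Across 12 alternatives, CACNA1D, CACNA1H, TRPM4, ORAI1, STIM1 and STIM2 kept their direction and their side of the threshold in each, and CACNA1G, which passed the filter through C4-2 only, in the 11 where it was tested; as the members were chosen with this contrast known, this lends them no support. The library totals behind RPKM changed most: 11572 genes were higher and 1757 lower (86.8% of calls higher, against 50.3%), 53 and 9 in the wider list, and 9 and 0 among the members, TRPM8 (0.014) and TRPV6 (0.86) turning positive and CACNA1I (1.09) passing. CRACR2B (0.25), ITPR2 (0.36), SLC24A4 (0.22), MICU2 (0.11), SMDT1 (0.35) and TPCN1 (0.48) also turned positive, and ATP2B1 (-0.13), CALM2 (-0.26), CACNA1S (-1.02) and CACNA1B (-1.06) lost their calls. The cause was not tested. Members called lower numbered 1, TRPV6 losing its call, by DESeq2 (-0.12), without a filter (-0.10), with the replicate block (-0.14), with summed transcripts (-0.14) and with tags of both strands (-0.10). With 1 library left out they numbered 1 to 2, and TRPV6 stood at -0.17 to -0.10. CACNA1I turned to -0.14 without LNCaP replicate 2, and CACNB2 to -0.011 with tags of both strands. The replicate numbers only name the libraries (correlation of same-numbered deviations -0.032 across genes), and the block gave 6259 genes higher and 6141 lower. Low counts limit CACNA1G and CACNA1I. With 2 libraries per line each gene's own spread has 2 residual degrees of freedom, and the edgeR fit moderates it with the spread across all tested genes.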
